A study of Rattus norvegicus with 6 samples.

Results

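The differences that set the tumor cell line JB apart from the tumor cell lines JA and Amy were described for 3158 named genes. For each gene, the log2 ratio of JB minus the mean of JA and Amy was taken within each dye orientation, so that the common normal reference and the dye effect drop out. Of the 3158 genes, 2292 (72.6%) had the same sign in both orientations, and 110 also had a size of at least 1, a doubling or halving, in both. These 110 genes, 66 higher and 44 lower in JB, are called members here. They were chosen by their values, so their differences describe JB and test nothing.

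JA, JB and Amy are rat esophageal tumor cell lines from tumors induced by reflux, in which stomach contents flow back into the gullet. RNA of each was hybridized against 1 common reference, a mixture in equal parts of Normal1 and Normal2, which are normal rat esophageal cell lines. Each line has 2 cDNA arrays that exchange the dyes, with the line in Cy3 on the first and in Cy5 on the second. Such a pair is a technical dye swap of the same extracts, so JB is 1 sample, JA and Amy are 2 others, and each line stands for itself alone and not for a class of tumors.

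The esophagus is lined by a stratified squamous epithelium, and long-standing reflux injures it and can replace it with columnar, gland-like cells. Tumors that follow such injury can take squamous or glandular form. Cultured tumor cells differ from each other in how far they have moved from an epithelial towards a mesenchymal state, a shift in adhesion, cytoskeleton and matrix that involves receptors such as Axl.

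The 6 arrays held 16128 spots with no missing value, in 8064 clones printed as pairs, giving 7180 features (3158 named genes and 4022 clones without a single gene name). Values were log ratios, taken as log2 and as line over pool; the base was not stated, and the direction is likely from the order of names in the titles. Turning all signs would exchange higher and lower throughout. On each array, the paired spots of a clone had correlations between 0.907 and 0.949, and the dye-swapped arrays had 0.844 (JA), 0.815 (JB) and 0.888 (Amy) across features. Array medians lay between -0.05 and -0.15. The number of lines and arrays limits the precision. Of the squamous markers listed, 3 were measured, and their median ratio lay between -1.10 and -0.16 over the arrays. The 8 measured columnar markers had array medians from -1.20 to -0.20. A ratio to the pool gives no absolute level, so it cannot show that a marker is absent.

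JB differed from JA and Amy in a small share of genes. The 66 higher members were 2.09% of the named genes and the 44 lower members 1.39%, together 3.48%. A difference of at least 2 in both orientations was reached by 12 genes in the higher and 10 in the lower direction. The same size of difference with opposite signs in the 2 orientations was seen for 6 genes, which were not counted. Among clones without a single gene name, 87 were higher and 38 lower by the same rule. The median gap between the orientations was 0.208 over the named genes and 0.205 over the members, with 0.992 as the 95th percentile over the named genes. The largest gap of a member was 2.19, for Chka. Over the 3158 genes, the JB difference in one orientation correlated with that in the other at 0.633, a description across genes that share the extracts of the 3 lines.

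**Figure D1:**
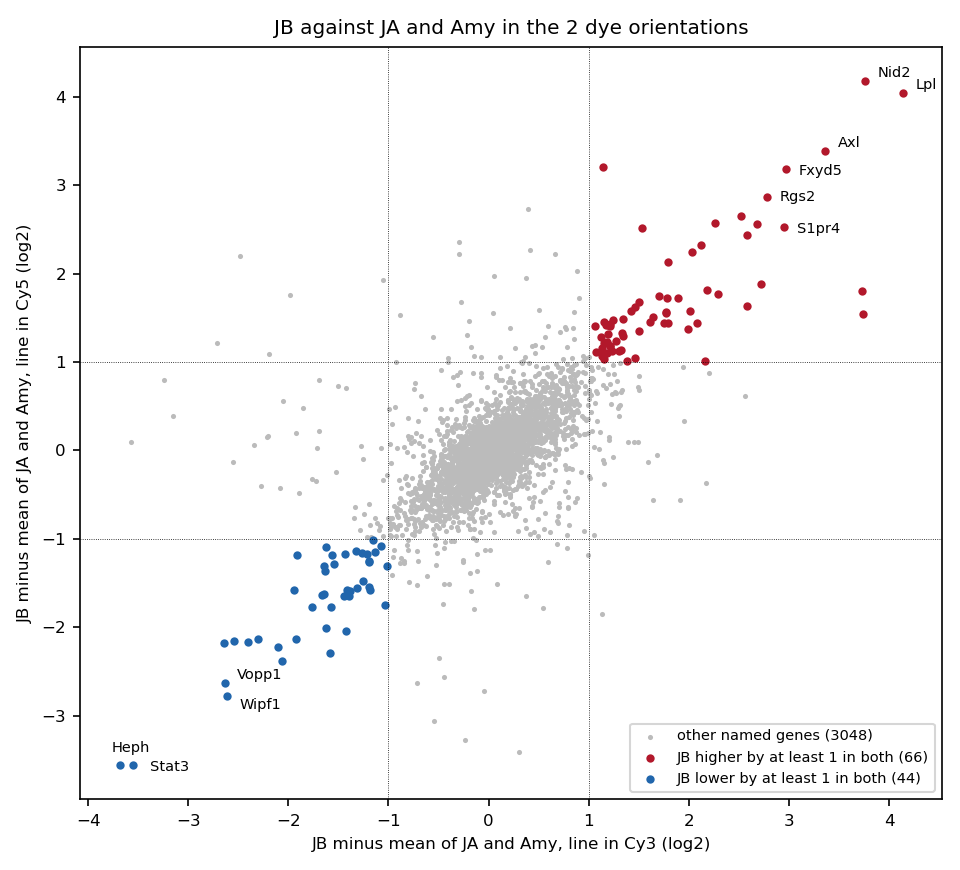
JB minus the mean of JA and Amy on the log2 scale, with the line in Cy3 on the horizontal axis and in Cy5 on the vertical axis, for 3158 named genes. The 66 higher members (red) and 44 lower members (blue) lie beyond the dotted lines at 1 and -1 in both orientations; Lpl, Nid2 and Axl lie farthest up, and Heph and Stat3 farthest down.

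JB lay outside the values of both other lines in both orientations for all 110 members, and the share over all named genes was 45.2%. The size rule itself favours such a position, so the difference between these shares says nothing further about the members. For 46 higher and 30 lower members the distance was at least 1 from JA and from Amy separately. The other lines were at least 1 apart from each other for 6 members, namely Psmb8, Clip4, Slc5a2, Cxxc5, Tgfbi and Stat3, so that their JB difference depends on which line it is set against. The median absolute difference between JA and Amy was 0.405 over the members and 0.246 over all named genes. With JA set against JB and Amy, 35 genes (14 higher, 21 lower) met the same rule, and with Amy set against JA and JB, 59 genes (23 higher, 36 lower). These counts use the same 6 arrays as the 110 for JB and are given side by side only.

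The rule is a line drawn through a continuous range. Just inside it were Arf2 (smaller orientation difference -1.01), St6galnac4 (1.01) and B4galt5 (1.02), and just outside it were Plekhb1, whose smaller difference rounds to 1.00, Ephx1 (0.99) and Nfat5 (-0.98).

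The contrast was also fitted with limma, a linear model that shares its estimate of spread across features, with 1 value per line. The spread then comes from JA against Amy alone, with 1 residual degree of freedom and 5.27 added by the shared estimate, and JB is assumed to vary as they do. Of 7180 features, 17 (0.237%) passed at an adjusted p under 0.05, 15 higher (0.209%) and 2 lower (0.0279%) in JB. Among named genes 12 passed (0.38%), and all 12 were members. The 10 higher were Lpl, Nid2, Axl, Fxyd5, Rgs2, Ptgs2os, S1pr4, Pnkd, Tmem45b and Chka, and the 2 lower were Heph and Gnpda2. At an adjusted p under 0.1, 33 named genes (1.04%) passed. Without adjustment, 751 features and 341 of the 3158 named genes had a limma p under 0.05. The members were chosen on the same differences that limma tests, so how many of them passed supports nothing further.

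The count moved when single arrays were left out. Such a fit leaves 1 line in 1 dye orientation beside lines in both, so the dye effect does not drop out. A change of the count or of its direction there cannot be told apart from dye. With 1 array left out, limma called 0 features without the JA array in Cy3 (lowest adjusted p 0.127, with 388 features under an unadjusted p of 0.05) and 0 without the Amy array in Cy3 (lowest adjusted p 0.0540, with 652). It called 32 without the JA array in Cy5, 124 without the JB array in Cy3 and 118 without the JB array in Cy5. With line as a random block and the dye orientation as a replicate block, it called 78. The split between directions also moved, from 15 higher and 2 lower to 18 and 10 with scaled arrays and to 42 and 23 with quantile normalization. Without the JB array in Cy3 it turned to 47 higher and 77 lower.

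Among genes higher in JB, the 3 largest differences were in genes low in JA and Amy and above the pool in JB. Lipoprotein lipase (Lpl), which releases fatty acids from circulating triglycerides, had log2 ratios of -2.35 and -2.73 in JA, 1.40 and 1.01 in JB and -3.12 and -3.34 in Amy, with the line in Cy3 first and in Cy5 second. Both JB arrays were above the pool and all 4 others well below it, with no overlap. The difference was 4.09 ± 0.36 (SE of the limma fit over 3 lines, adjusted p 0.0310), or 17.0-fold. Both clones of Lpl were past the rule, at a mean difference of 2.91 and 5.27, so the size of the difference depends on the clone.

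Nidogen-2 (Nid2), a basement membrane protein that links laminin and collagen networks, stood at -2.12 and -3.56 in JA, 1.83 and 1.07 in JB and -1.73 and -2.66 in Amy. JB was again the only line above the pool. The limma difference was 3.97 ± 0.35 (SE, adjusted p 0.0310), or 15.7-fold, measured by 1 clone.

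Axl, a receptor tyrosine kinase activated by Gas6 and associated with the mesenchymal state, showed the same pattern. Its ratios were -2.04 and -2.61 in JA, 0.80 and 0.52 in JB and -3.09 and -3.11 in Amy. The difference was 3.37 ± 0.38 (SE, limma adjusted p 0.0416), or 10.4-fold, and it was nearly equal in the 2 orientations, at 3.36 and 3.39. The RefSeq sequence upstream of its start is given because Axl is the receptor that stood out most; it lies at chr1:90424010-90424259 of GRCr8 on the minus strand, and capitals mark the letters GGGCGG, the GC box.
Axl: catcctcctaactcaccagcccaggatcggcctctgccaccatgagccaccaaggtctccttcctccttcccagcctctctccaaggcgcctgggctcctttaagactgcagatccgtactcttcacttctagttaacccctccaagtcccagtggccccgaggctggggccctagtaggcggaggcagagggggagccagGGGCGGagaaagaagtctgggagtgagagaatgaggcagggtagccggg

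Rgs2, which shortens signals of G protein-coupled receptors by speeding up GTP hydrolysis on G alpha subunits, differed in another way. It was at -0.68 and -0.57 in JA, 1.96 and 2.09 in JB and -0.97 and -0.98 in Amy, so that JA and Amy were within 1 of the pool and JB was about 2 above it. The difference was 2.82 ± 0.30 (SE, limma adjusted p 0.0393), or 7.07-fold. Its next measured neighbour on chromosome 13, Ptgs2os, had nearly the same values, at -0.66 and -0.49 in JA, 1.88 and 1.99 in JB and -0.94 and -0.67 in Amy. Ptgs2os is annotated as a transcript on the strand opposite the prostaglandin synthase gene Ptgs2, and a double-stranded cDNA clone does not tell the strands apart. The upstream sequence of Rgs2, at chr13:58352667-58352916 of GRCr8 on the minus strand, is shown beside that of Axl; capitals mark 4 GC boxes, read as GGGCGG or, on the other strand, CCGCCC.
Rgs2: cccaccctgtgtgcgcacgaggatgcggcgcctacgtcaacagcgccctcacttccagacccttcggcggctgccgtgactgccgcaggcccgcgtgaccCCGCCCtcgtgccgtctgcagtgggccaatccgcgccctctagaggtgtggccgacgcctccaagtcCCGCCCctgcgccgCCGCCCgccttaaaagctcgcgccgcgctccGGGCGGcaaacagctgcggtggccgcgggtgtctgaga

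**Figure D2:**
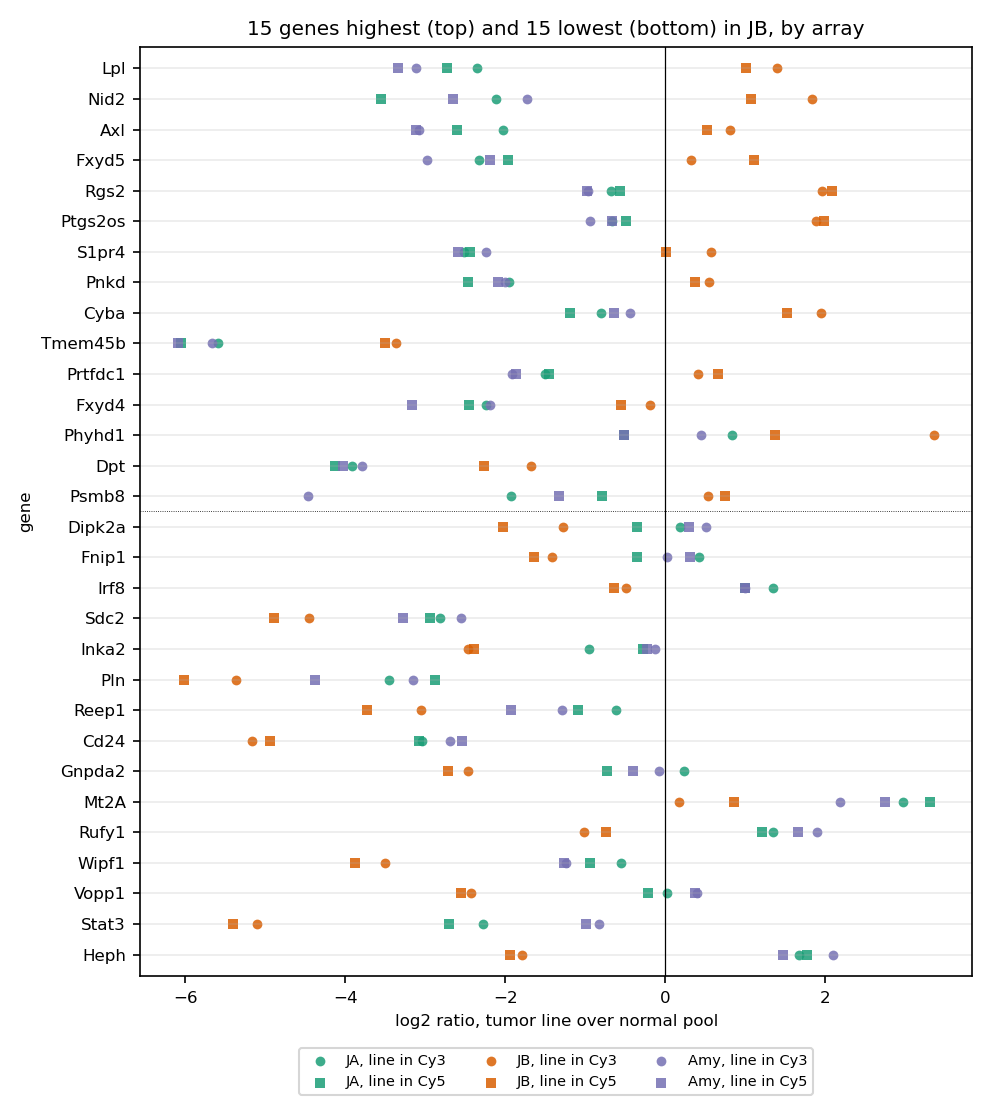
Log2 ratio of each tumor line over the normal pool on each of the 6 arrays (circles, line in Cy3; squares, line in Cy5; colour gives the line) for the 15 higher and 15 lower members with the largest smaller orientation difference. JB (orange) lies to the right of JA and Amy for the upper 15 genes, as for Lpl at 1.40 and 1.01, and to the left for the lower 15, as for Heph at -1.80 and -1.94.

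Membrane proteins were several of the other highest members. Fxyd5 (dysadherin), a subunit of the sodium-potassium pump that also affects cell adhesion, was at -2.33 and -1.97 in JA, 0.32 and 1.10 in JB and -2.97 and -2.20 in Amy (limma difference 3.08, adjusted p 0.0393). Its relative Fxyd4 was at -2.24 and -2.45 in JA, -0.19 and -0.56 in JB and -2.20 and -3.17 in Amy, a 4.41-fold difference with all 6 arrays below the pool (limma adjusted p 0.0660). The sphingosine-1-phosphate receptor S1pr4 was at -2.52 and -2.44 in JA, 0.57 and 0.01 in JB and -2.24 and -2.59 in Amy (limma difference 2.74, adjusted p 0.0393). In these 3 genes JA and Amy were at -1.97 or lower on every array, and JB lay between -0.56 and 1.10. Tmem45b was far below the pool everywhere, at -5.60 and -6.05 in JA and -5.67 and -6.09 in Amy, and less so in JB, at -3.37 and -3.50 (limma difference 2.42, adjusted p 0.0416). Without spot intensities, ratios as low as these may only be limits reached because one channel was dim.

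The other genes of the 15 highest included Cyba, the p22phox subunit of the superoxide-producing NADPH oxidase. Its ratios were -0.81 and -1.20 in JA, 1.95 and 1.52 in JB and -0.44 and -0.64 in Amy, a 5.68-fold difference. That missed the threshold in limma (adjusted p 0.0527), although both clones were past the rule at mean differences of 1.43 and 3.58. Pnkd was at -1.96 and -2.46 in JA, 0.54 and 0.38 in JB and -2.01 and -2.09 in Amy (limma difference 2.59, adjusted p 0.0393). Prtfdc1, a relative of the purine salvage enzyme Hprt1, had a 4.66-fold difference, with mean differences of 2.06 and 2.39 in its clones. The clones of Prtfdc1 differed in level, since JB was at -0.81 and -0.63 in the first and 1.63 and 1.95 in the second, while JB stood above the other lines in both. Phyhd1, a dioxygenase, was at 3.36 and 1.37 in JB and between -0.52 and 0.84 on the 4 other arrays. Dermatopontin (Dpt), a matrix protein that binds collagen and decorin, was at -1.68 and -2.26 in JB against -3.79 to -4.12 in the others, so it was below the pool in every line.

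Choline kinase alpha (Chka), the first enzyme of phosphatidylcholine synthesis, is named because it passed limma. JA and Amy were at the pool, between -0.24 and 0.11, and JB was at 3.80 on one array and 1.42 on the other. The direction was the same in both orientations, but the differences of 3.74 and 1.55 are 2.19 apart, the widest gap among the members (limma difference 2.65 ± 0.27 SE, adjusted p 0.0393).

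The lowest member was hephaestin (Heph), a membrane ferroxidase that works with ferroportin in the export of iron. Its ratios were 1.68 and 1.77 in JA, -1.80 and -1.94 in JB and 2.10 and 1.47 in Amy, so that it was above the pool in the other lines and below it in JB. The difference was -3.62 ± 0.27 (SE, limma adjusted p 0.0292), or 12.3-fold lower, which was the smallest adjusted p of all named genes. The sequence before its start, at chrX:65308806-65309055 of GRCr8 on the plus strand, is shown as the counterpart of Axl and Rgs2 among lower members; capitals mark GGAATG, the letters bound by TEAD factors, and no GC box was found.
Heph: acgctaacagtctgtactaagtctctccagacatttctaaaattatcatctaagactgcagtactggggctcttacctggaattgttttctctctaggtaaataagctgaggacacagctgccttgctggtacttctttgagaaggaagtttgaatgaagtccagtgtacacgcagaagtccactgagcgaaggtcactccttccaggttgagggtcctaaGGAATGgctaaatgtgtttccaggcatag

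Stat3, a transcription factor that carries signals of interleukin-6 family cytokines, was lower by a similar amount. It stood at -2.28 and -2.71 in JA, -5.11 and -5.40 in JB and -0.83 and -0.99 in Amy, below the pool in all 3 lines and lowest in JB. The difference of -3.55 (11.8-fold lower) did not pass in limma (adjusted p 0.103), and JA and Amy were themselves 1.58 apart. It was measured by 1 clone. As for Tmem45b, ratios as low as those of JB may be limits of a dim channel, and the fold may then be a bound; this applies also to Pln, Cd24, Sdc2 and Sparc below. Its upstream sequence, at chr10:86363360-86363609 of GRCr8 on the minus strand, held none of the 6 motifs searched, among them TTCNNNGAA, the letters bound by STAT factors.
Stat3: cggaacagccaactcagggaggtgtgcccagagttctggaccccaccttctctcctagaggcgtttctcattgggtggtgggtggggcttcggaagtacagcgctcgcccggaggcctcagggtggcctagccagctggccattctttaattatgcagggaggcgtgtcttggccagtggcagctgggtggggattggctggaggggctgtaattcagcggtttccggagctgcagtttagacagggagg

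Upstream sequences of 250 bases were held by the RefSeq table for 93 of the 110 members, matched by symbol. Both strands were searched for the STAT letters TTCNNNGAA, for the AP-1 letters TGANTCA, for the cyclic AMP response element TGACGTCA, for the TEAD letters GGAATG, for the GC box GGGCGG and for the TATA box TATAAA. Matches of the STAT and TEAD letters can overlap. The GC box was in 60.4% of 53 higher and 52.5% of 40 lower members, against 58.6% of the 2646 named genes on the array with an entry and 32.4% of all 27457 promoters. The TEAD letters were in 11.3% of higher and 5.0% of lower members, against 10.4% of the named genes and 11.8% of all promoters. The AP-1 letters were in 3 of 53 higher and 4 of 40 lower members, against 4.8% of the named genes. The STAT letters were in 3.8% of higher and 5.0% of lower members, against 6.5% of the named genes. These shares are descriptions of letters and count few promoters.

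The other strongly lower members had several roles. Vopp1, a protein of intracellular vesicles, was at 0.02 and -0.22 in JA, -2.43 and -2.56 in JB and 0.40 and 0.37 in Amy, a 6.21-fold difference (limma adjusted p 0.0507). Gnpda2, which converts glucosamine-6-phosphate back towards glycolysis, was at 0.24 and -0.73 in JA, -2.47 and -2.72 in JB and -0.08 and -0.40 in Amy (limma difference -2.35, adjusted p 0.0447). In both genes JA and Amy were within 1 of the pool, and JB was more than 2 below it. Rufy1, an effector of Rab GTPases on endosomes, was above the pool in JA (1.35 and 1.21) and Amy (1.90 and 1.66) and below it in JB (-1.02 and -0.74). Phospholamban (Pln), the inhibitor of the calcium pump of the endoplasmic reticulum, was at -5.37 and -6.02 in JB against -2.88 to -4.38 on the other arrays. Reep1, which shapes endoplasmic reticulum tubules, was at -3.05 and -3.74 in JB against -0.61 to -1.93. Fnip1, an interaction partner of folliculin, and Dipk2a, both also among the 15 lowest, had differences of -1.63 and -1.81, with JA and Amy near the pool.

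Metallothionein Mt2A, which binds zinc and copper, was another lower member that handles metal. All 6 ratios were above the pool, at 2.97 and 3.31 in JA, 0.17 and 0.85 in JB and 2.18 and 2.74 in Amy. The difference was -2.29 (4.88-fold lower, limma adjusted p 0.0889). Metallothionein transcripts are close in sequence, so other family members may contribute to this spot pair.

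By their position against the pool, the members followed a few patterns. Members were chosen for a JB difference of at least 1, which itself favours some of these patterns. Their shares over all named genes were not counted, so the counts only describe the members. Among the 66 higher members, JB was above and the other lines below the pool on every array for 27, all arrays were below the pool for 15, all were above for 7, and signs were mixed for 17. JA and Amy were at -1 or lower on all 4 arrays with JB within 1 of the pool for 11, so there JB alone was close to the normal pool. For 16 the reverse held, with JA and Amy within 1 of the pool and JB at least 1 away. Among the 44 lower members, all arrays were below the pool for 16, JB was below and the others above for 7, all were above for 3, and signs were mixed for 18. JB was close to the pool and the others at 1 or higher for 5, and JB alone was at least 1 away for 8.

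Genes of the mesenchymal list were mostly higher in JB. Of 8 measured, 3 were past the rule and 7 were higher in both orientations, with a median difference of 0.74. Over all named genes, 3.48% were past the rule, 1229 of 3158 were higher in both orientations, and the median was 0.03. Of the 8, 1 passed in limma. Beside Axl, the members were Tpm1, tropomyosin of actin filaments, and fibronectin (Fn1), a matrix glycoprotein that cells adhere to. Fn1 was at 0.50 and 0.32 in JA, 1.32 and 1.21 in JB and -0.12 and -0.04 in Amy (limma adjusted p 0.285). The clones of both genes differed. The first clone of Tpm1 had a mean difference of 0.62 and the second 3.30, and those of Fn1 had 0.48 and 1.73, so neither gene was past the rule in every clone. The list has few measured genes, and its lowest, the cadherin Cdh13, was at -0.53.

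**Figure D3:**
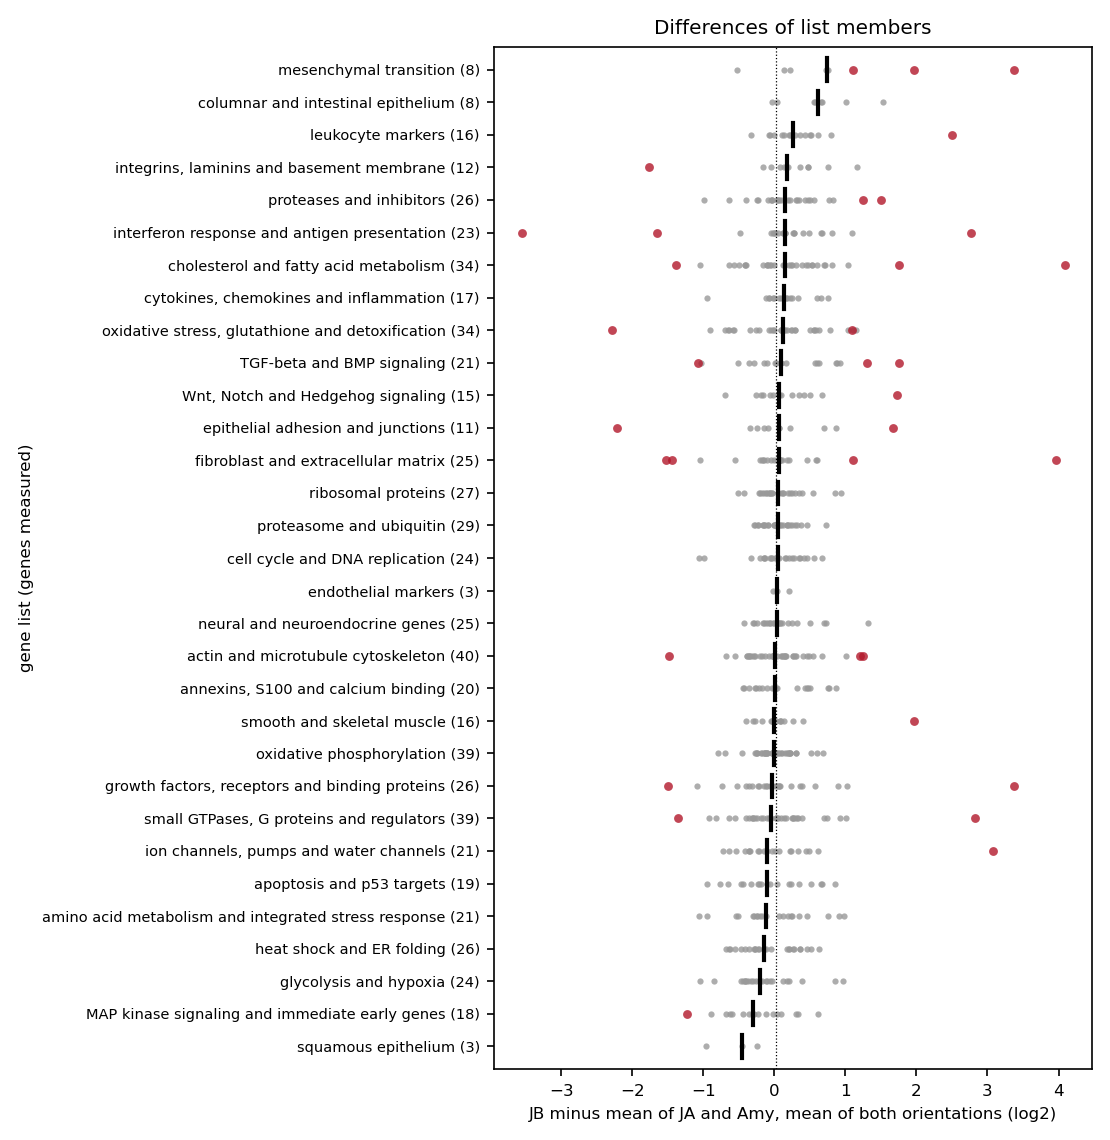
JB minus the mean of JA and Amy, as the mean of both orientations on the log2 scale, for each measured gene of 31 lists (numbers of genes in parentheses). Red points are genes past the rule, black bars are list medians, and the dotted line is the median of all named genes, 0.03; the mesenchymal list has the highest median, 0.74, and most other medians lie near the dotted line.

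Matrix and adhesion genes differed in both directions. For these and the lists below, the share past the rule over all named genes was 3.48%, and no list was tested against it. Of 25 fibroblast and matrix genes, 2 were higher (Nid2 and Fn1) and 2 lower (Fbn1 and Sparc), with a median of 0.06. Sparc, a collagen-binding glycoprotein, was at -3.90 and -3.76 in JA, -5.13 and -5.25 in JB and -3.58 and -3.46 in Amy, and 3 of its 4 clones were past the rule. Fibrillin-1 (Fbn1), the core of microfibrils, was at -2.86 and -2.51 in JB against -0.59 to -1.59 in the others. Both were thus below the pool in all lines and lowest in JB. The array medians of this list lay between -2.81 and -2.13 in every line.

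The surface and junction genes also differed among themselves. Claudin-1 (Cldn1), a tight junction protein, was at -0.61 and -0.49 in JA, 1.42 and 1.25 in JB and -0.08 and -0.13 in Amy (limma adjusted p 0.119). Cd24, a mucin-like surface glycoprotein of epithelial cells, was at -3.05 and -3.08 in JA, -5.17 and -4.95 in JB and -2.69 and -2.55 in Amy (limma adjusted p 0.0712). It was measured by 7 clones, of which 6 were past the rule at mean differences from -3.20 to -1.66 and the other was at 0.06. These were the 2 members among 11 genes of epithelial adhesion, whose median was 0.07. Syndecan-2 (Sdc2), a heparan sulfate proteoglycan, was at -4.45 and -4.89 in JB against -2.56 to -3.28 in the others, and was the only member among 12 integrin, laminin and basement membrane genes (median 0.18). Of the epithelial class markers, none of 8 columnar genes (median 0.62, with 6 higher and 0 lower in both orientations) and none of 3 squamous genes (median -0.45) was past the rule. Trefoil factor Tff3, named for the highest mean difference of the former (1.54), was at 1.23 and 0.49 in JB and between -1.02 and 0.01 in the others. Keratin 8 (Krt8) was at 0.62 and 1.09 in JB and between -0.28 and 0.50 in the others (limma adjusted p 0.476).

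Of the growth factor and receptor genes measured, 2 were past the rule, with Axl the only higher one. The share over all named genes was 3.48%. Of 26, the only lower one was pleiotrophin (Ptn), a heparin-binding growth factor, at -1.84 and -1.75 in JA, -2.57 and -3.06 in JB and -0.52 and -1.18 in Amy. Erbb2, a fixed gene of interest as a receptor amplified in some esophageal tumors, was not past the rule (0.04 and -0.48 in JB, between -0.22 and 0.44 in the others). Of 21 genes of the TGF-beta and BMP pathway, the ligand Tgfb2 and the type I receptor Acvr1 were higher and the matrix protein Tgfbi, induced by TGF-beta, was lower. Tgfb2 was above the pool in every line and highest in JB, at 0.99 and 1.29 in JA, 2.61 and 2.77 in JB and 0.67 and 0.80 in Amy. Acvr1 was at 0.43 and -1.28 in JA, 1.58 and 0.75 in JB and 0.41 and -0.11 in Amy. Both of its clones were past the rule. In Cy5, however, 1 of these clones passed through JA at -2.65, with JB at 0.52 and Amy at 0.22. The same clone had JA at 0.84 in Cy3. Tgfbi was at -0.30 and -0.05 in JA, -0.87 and -0.61 in JB and 0.69 and 1.00 in Amy, so JB was nearer to JA than to Amy. None of these passed in limma. The Notch1 receptor, the only member of 15 Wnt, Notch and Hedgehog genes, was at -1.36 and -1.16 in JA, 0.77 and 0.89 in JB and -0.49 and -0.56 in Amy (limma adjusted p 0.161).

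Downstream signaling genes were lower more often than higher among the MAP kinase and immediate early genes. Of 18 measured, 12 were lower in both orientations and 5 higher, with a median of -0.30, against 1063 lower and 1229 higher over all named genes, but only the phosphatase Dusp5, which acts on ERK in the nucleus, was past the rule. Dusp5 was at 0.48 and 0.70 in JA, -0.48 and -0.39 in JB and 0.96 and 1.03 in Amy. Jun, named as the next lowest of the list, was at -0.20 and -0.18 in JB, 0.30 and 0.23 in JA and 1.21 and 1.08 in Amy. None of the 18 passed in limma. Of 39 small GTPase and G protein genes (median -0.04), Rgs2 was higher and the inhibitory subunit Gnai1 lower, with Gnai1 at -0.08 and 0.13 in JA, -2.20 and -1.46 in JB and -1.06 and -0.86 in Amy.

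Cytoskeletal genes again had members in both directions. Of 40 genes, the nonmuscle myosin heavy chain Myh9 and the actin nucleation subunit Arpc1a were higher, and thymosin beta 4 (Tmsb4x), which sequesters actin monomers, was lower. Myh9 was at 0.53 and 0.58 in JA, 1.85 and 1.86 in JB and 0.63 and 0.68 in Amy. Tmsb4x was at -0.16 and -0.33 in JA, -1.74 and -1.59 in JB and -0.03 and -0.24 in Amy. In each, JA and Amy lay together within 1 of the pool and JB stood apart by over 1. The list's median was 0.01. Outside the list, Wipf1, a partner of the WASP proteins in actin assembly, was at -0.55 and -0.94 in JA, -3.51 and -3.88 in JB and -1.25 and -1.26 in Amy, a 6.48-fold difference. Inka2, an inhibitor of the kinase Pak4, was at -2.46 and -2.39 in JB against -0.13 to -0.95 in the others. Beta-actin (Actb), often used as a reference gene, was measured by 5 clones. It was at -0.26 and 0.98 in JB and at 0.69 or higher on each array of the others. Its difference was -0.97 with the line in Cy3 and -0.14 with the line in Cy5, with a mean of -0.55. The sign changed without the JB array in Cy3, in a fit that set JB in Cy5 against both orientations of the others.

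Genes of interferon response and antigen presentation included some of the largest differences in either direction. Of 23 genes, Psmb8 was higher and Stat3 and Irf8 lower, and the median was 0.15. None of 17 genes of the separate list of cytokines, chemokines and inflammation was past the rule. Psmb8, the immunoproteasome subunit that shapes peptides for antigen presentation, was at -1.92 and -0.79 in JA, 0.53 and 0.75 in JB and -4.47 and -1.32 in Amy. Its difference was 3.73 in one orientation and 1.81 in the other, and the Amy array in Cy3 stood apart from all others. Irf8, an interferon regulatory transcription factor best known from myeloid cells, was at 1.34 and 0.99 in JA, -0.50 and -0.64 in JB and 1.00 and 1.00 in Amy, with its clones at mean differences of -2.21 and -1.09. Stat5a, the next measured neighbour of Stat3 on chromosome 10 and named for that, was higher in JB, at 0.53 and 0.04 against -1.05 to -1.76 in the others. Of 16 leukocyte markers, only Cyba was past the rule; the list's array medians were between -1.73 and -1.21 in all lines.

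The lists of metabolic and proteolytic genes each held 2 or 3 members. The share past the rule over all named genes was 3.48%, and no list was tested against it. Of 34 genes of cholesterol and fatty acid metabolism (median 0.15), Lpl and the delta-5 desaturase Fads1 were higher and Fabp3, a fatty acid carrier, lower. Fads1 was at -0.72 and -2.12 in JA, 1.45 and -0.28 in JB and -0.55 and -1.31 in Amy, with JB highest in each orientation although its own arrays had different signs. Fabp3 was at -1.29 and -1.19 in JB and between -0.55 and 0.60 in the others. Of 26 proteases and inhibitors, the lysosomal cathepsins Ctsl and Ctsd were higher. Ctsl was at -2.14 and -2.39 in JA, -0.86 and -0.98 in JB and -2.43 and -2.74 in Amy, and 4 of its 5 clones were past the rule. Ctsd was at -1.19 and -0.60 in JB against -1.55 to -2.81 in the others. Of 34 genes of oxidative stress and detoxification, the reductase Akr1c14 was higher, at -1.75 and -1.73 in JB against -2.71 to -2.96, and Mt2A lower; Akr1c14 has close relatives that its clone may also detect.

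In 14 of the 31 lists no gene was past the rule, against a share of 3.48% over all named genes. At that share a short list can hold no member, so the absence is not read as a trait of these lists. They included 24 genes of cell cycle and DNA replication (median 0.05), 27 ribosomal proteins (0.06), 39 of oxidative phosphorylation (0.00), 29 of proteasome and ubiquitin (0.05), 19 of apoptosis and p53 targets (-0.11) and 24 of glycolysis and hypoxia (-0.20). Cyclin D1 (Ccnd1), which drives cells out of G1, was at 1.24 and 1.51 in JB and between 1.16 and 1.73 in the others, a difference of -0.03 ± 0.28 (SE of the limma fit over 3 lines, adjusted p 0.991). A difference in Ccnd1 was thus not detectable with these arrays. Of the 110 members, 32 were on a list and 78 on none.

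Clones of a gene are separate measurements of its transcript on the same arrays. Of the 110 members, 20 were measured by more than 1 clone, and 8 of these were past the rule in every clone: Acvr1, Cyba, Gch1, Irf8, Lpl, Pam, Prtfdc1 and Tpst2. Gch1, the first enzyme of tetrahydrobiopterin synthesis, had mean differences of 1.14 and 1.15 in its clones. Tpst2, which sulfates tyrosines of secreted proteins, had 1.61 and 1.72. Pam, which amidates peptide hormones, had -1.25 and -1.17. In these genes the clones were close, whereas B4galt5, a galactosyltransferase of glycolipid synthesis, was past the rule in 3 of 6 clones, with mean differences from -0.31 to 2.07. Cxcl16 and Sox4 were past the rule only as the mean of their clones, 0 of 2 in each. A single clone measured 52 higher and 38 lower members, for which no such comparison exists.

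**Figure D4:**
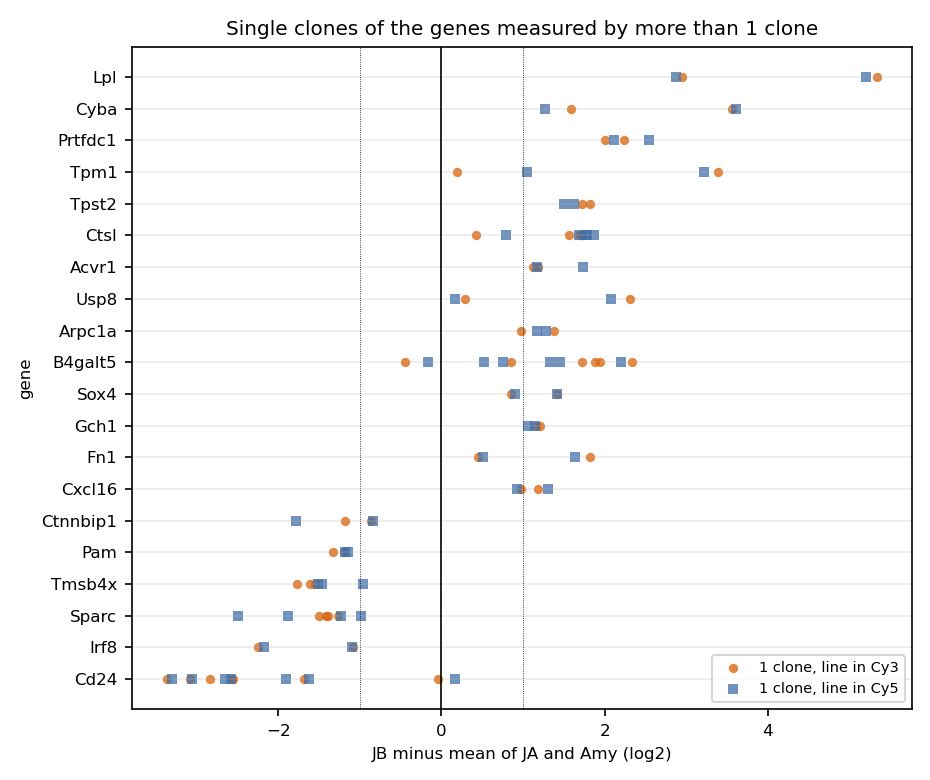
JB minus the mean of JA and Amy on the log2 scale for each clone of the 20 members measured by more than 1 clone, with the line in Cy3 (circles) and in Cy5 (squares). The clones of Tpst2 and Pam lie close together, those of Lpl lie at a mean of 2.91 and 5.27, and 1 of the 7 clones of Cd24 lies at 0.06.

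Position in the genome was looked at after the values were seen, for the 3156 named genes placed on a chromosome by RefSeq (GRCr8), and no test was made. The median JB difference was 0.03 over all placed genes. Chromosome 19 had the lowest median, -0.30 over 95 genes, of which 76.8% were lower in JB. That median was -0.22 with the line in Cy3 and -0.38 with the line in Cy5, -0.27 against JA alone, -0.33 against Amy alone, and -0.28 without the members. JA minus Amy had a median of -0.08 there. Chromosome 3 had the highest median, 0.23 over 226 genes, with 73.5% higher, and chromosome 6 followed at 0.18 over 154 genes, with 72.1% higher. On chromosome X, 72.6% of 84 genes were lower, with a median of -0.16.

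**Figure D5:**
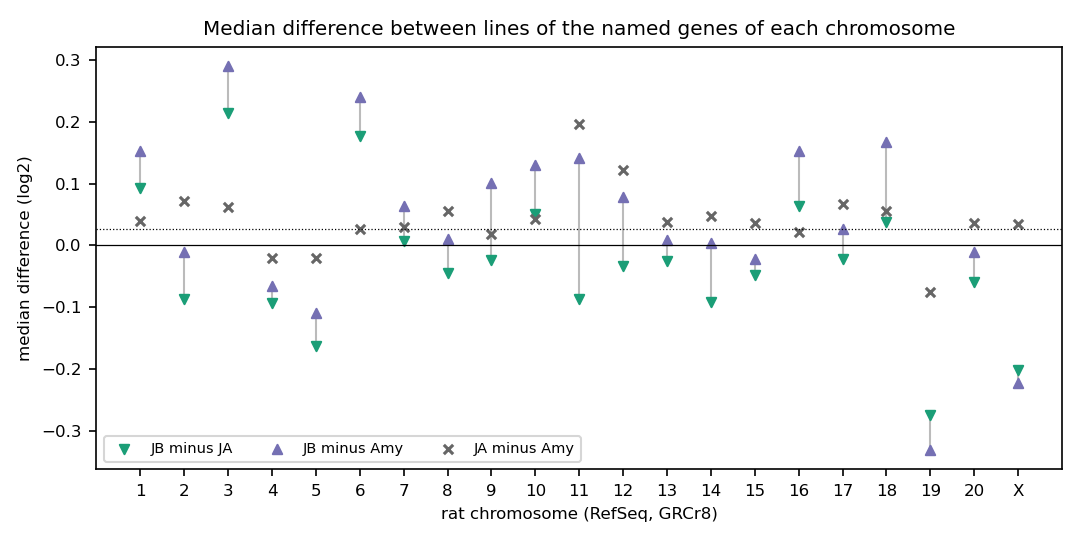
Median log2 difference between lines over the named genes of each rat chromosome, for JB minus JA (downward triangles), JB minus Amy (upward triangles) and JA minus Amy (crosses); the dotted line marks the median JB difference of all placed genes, 0.03. Chromosome 19 lies lowest for both JB differences, at -0.27 and -0.33, and chromosomes 3 and 6 lie highest.

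The members followed these medians only in part, and over all named genes 2.09% were higher and 1.39% lower members. Chromosome 3 held 12 higher and 2 lower members among 226 genes, and chromosome 19 held 5 lower and 2 higher among 95, of which Cyba was one. Chromosome 6, with the second highest median, held 3 higher members among 154 genes. Chromosome 1 held 11 higher and 3 lower members among 378 genes, and chromosome 4 held 6 lower and 2 higher among 174, the largest number of lower members on a chromosome. Chromosome X held 4 lower and 0 higher among 84. Chromosome 5, with a median of -0.15, held 5 lower and 0 higher among 206. Chromosome 17, with a median of 0.02, held 5 higher and 1 lower among 87. Members that were next to each other among the measured genes formed 8 pairs, 7 of them in the same direction. How many such pairs would arise from position alone was not counted, so clustering is not read from them. On chromosome 19, Arl2bp, the nuclear pore protein Nup93 and Mt2A were consecutive and lower, at -1.23, -1.15 and -2.29. On chromosome 12, Tpst2 (1.66) and Crybb1 (1.41) were consecutive and higher, as were Entpd2 (1.54) and Npdc1 (1.29) on chromosome 3. The pair in opposite directions was Stat5a, which was higher, and Stat3 (-3.55).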

How the data were processed

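Total RNA of 3 tumor lines and a pool of 2 normal lines was compared on 6 two-colour arrays. Each spot's deposited value was a log ratio, already turned one way on both arrays of each dye swap and used as a log2 ratio. Scanner, background correction and normalization are not given in the sources used here, no spot intensities were used, and a normalization that differed between arrays would move every difference. Of 16128 spots, 8084 had 1 gene symbol, 40 several and 8004 none; 8076 matched RefSeq genes (GRCr8) by identifier, and 0 symbols changed. Spots were averaged per gene. No values were filtered, and 0 columns went unused.

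The size rule and limma 3.58.1 (lmFit, eBayes) in R 4.3.3 were applied as described, with two-sided p adjusted by Benjamini-Hochberg over 7180 features; adjusted p-values and folds are computed here. The script was tested on simulated data with known JB differences, where limma made 109 calls, of which 13 were false. It recovered 0% of the differences of 0.5, 2% of those of 1, 90% of those of 2 and 100% of those of 4. A gene that did not pass in limma may thus still differ by 1. The replicate number is the dye orientation, per the labels. The difference between orientations correlated between lines at 0.613, 0.552 and 0.526, so the numbers pair the arrays. Nothing states that a line was cultured more than once, so p-values measure only the spread between these samples.

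The members, the 31 lists (648 symbols measured) and the tests were chosen with earlier results of these data known. Genes named were the 15 highest and 15 lowest members, up to 5 members per list and direction, the 3 nearest the threshold on each side, Ccnd1, Erbb2, Krt8 and Actb, and members past the rule in every clone. Chka, the named neighbours, Tff3, Jun, Cdh13 and genes named for a gap were added after their values were seen. Alternatives were other sizes and thresholds, centring, scaling, quantile normalization, robust and unmoderated variances, blocks, single dye orientations, clones and arrays left out. Python 3.11.15 with matplotlib 3.10.9 made the figures.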

Additional observations from a re-analysis of the deposited data

Results flagged for a closer look

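For 20 of the genes named above, JB stood on one side of the normal pool on both of its arrays while JA and Amy stood on the other side on all 4 of theirs. Over all members this opposition of signs held for 27 of 66 higher and 7 of 44 lower genes. Its share over all named genes was not counted. Genes were named mostly for a large JB difference, which favours opposite signs. The opposition was not itself tested. The difference between the lines was tested in limma. Lpl, Nid2, Axl, Fxyd5, Rgs2, S1pr4, Ptgs2os, Pnkd and Heph passed there, and the others did not, with adjusted p from 0.0527 (Cyba) to 0.358 (Gch1). In 16 of the 20, JB was above the pool. Genes of receptors and signaling among them were Axl (difference 3.37), S1pr4 (2.74), Rgs2 (2.82) and Notch1 (1.72). Genes of matrix, junction and membrane were Nid2 (3.97), Cldn1 (1.66) and Fxyd5 (3.08). Enzymes were Lpl (4.09), Gch1 (1.15), B4galt5 (1.20), Prtfdc1 (2.22) and the proteasome subunit Psmb8 (2.77). The others were Ptgs2os (2.62), Pnkd (2.59), the oxidase subunit Cyba (2.51) and the actin nucleation subunit Arpc1a (1.21). In 4, JB was below the pool and the other lines above it: Heph (-3.62), Rufy1 (-2.41), Irf8 (-1.65) and Dusp5 (-1.22). For S1pr4 the Cy5 array of JB was at 0.01, so its sign against the pool rests on 1 array. For Gch1 the Cy5 array of JA was at -0.01. Single clones of 3 of these genes did not show the opposition. A clone of Gch1 had JA at 0.07 in Cy5, a clone of Prtfdc1 had JB at -0.81 and -0.63, and a clone of B4galt5 had JB at -0.53 and -0.13.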

How the results depend on the processing

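By size, 465 genes were past 0.5 and 22 past 2, and 220 and 211 were past 1 with the line in Cy3 or Cy5 alone; the other alternatives stayed within 1.5 times of 110. The limma count of 17 features became 5 with centred arrays, 28 scaled, 65 quantile normalized, 0 without moderation (424 at an unadjusted p under 0.05), 81 and 2 with Cy3 or Cy5 alone, 42 over single clones, 64 with the filter on duplicate spots and 56 at a threshold of 0.1. With line as a random block it was 179 with no replicate block and 78 with the replicate block, which here is the pairing by dye orientation. Both of these fits take arrays as units, so part of their spread is technical and JB is still 1 line. With single arrays left out it ranged from 0 to 124. Of the 12 called genes, 3 were called with centred arrays, 10 scaled, 12 quantile normalized, 11 with the replicate block, 12 with Cy3 alone and 0 with Cy5 alone, where their adjusted p was 0.0718 to 0.222. None of the 12 was called without moderation, without JA replicate 1 or without Amy replicate 1. Signs of these named genes changed. Ccnd1 was at 0.0259 with Cy3 alone, from -0.162 to 0.107 with single arrays left out (0.0456 without JA replicate 2, 0.0871 without Amy replicate 2) and 0.262 in its least typical clone. Actb was from -1.17 to 0.0646 with single arrays left out and at 0.915 in such a clone, where B4galt5 was at -0.308 and Cd24 at 0.0634. The chromosome medians were computed after the data were seen; that of chromosome 19 was -0.34 centred, -0.35 scaled and -0.36 quantile normalized. In each fit with an array left out, 1 line is in 1 dye orientation only, so the dye effect does not drop out there. Spread is estimated from JA and Amy alone, and signal over background is unknown.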
